A study of Mus musculus with 2 samples.

Results

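The clustered histone genes are the 67 of 32285 listed genes whose symbol begins with Hist1h, Hist2h, Hist3h or Hist4h. They comprise 6 genes of the linker histone H1, 18 of H2A, 18 of H2B, 12 of H3 and 13 of H4. The Hist1 cluster holds 54 of them on chromosome 13, between 21715763 and 23934851 of the mouse build GRCm38. The Hist2 cluster holds 10 on chromosome 3 (96219865 to 96270132), Hist3 holds 2 on chromosome 11 and Hist4 is 1 gene on chromosome 6. Their transcripts were read by single-cell RNA sequencing in 1 library of cultured progenitors from subcutaneous white adipose tissue (WAT) and 1 from interscapular brown adipose tissue (BAT) of C57/BL6 mice. In both libraries tissue of male and female pups was pooled, at postnatal day 0 by the labels and day 1 by the study's text. It was digested with collagenase for 35 minutes (WAT) or 50 minutes (BAT). The plated cells were grown until confluent, for 4 days by the labels, with no genetic change or added agent. Depot cannot be told apart from library or digestion time, and with no replicate library no test was possible, so intervals (95%) cover counting error only. The precursors were 98.3% and 97.1% of the cells that carry an author label, 1999 per depot, and Pdgfra, Pdgfrb and Dlk1, their markers, reached 115, 151 and 494 CPM in WAT and 81.9, 144 and 377 in BAT.

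Histones package DNA: pairs of H2A, H2B, H3 and H4 form the nucleosome core, and H1 binds the DNA between cores. Most clustered histone genes are made in bulk only while DNA is copied, and their messages end in a short stem-loop that is held by the protein SLBP in place of a poly(A) tail. Most histone genes outside the clusters code for replacement histones with ordinary poly(A) tails. A library primed on poly(A), as here, can prime on a tail or on an internal run of A, so the stem-loop ending bears on what it holds.

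The ends of the gene models are shown because they set what a poly(A) primer can hold. Sequences are from the GENCODE M21 transcripts (GRCm38), read along the transcript, and capitals mark the feature each line is named for. The stem-loop came in 8 forms, of which the first below was found in 25 members.
Hist1h2ap stem-loop: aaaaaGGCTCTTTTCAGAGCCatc
Hist1h3c stem-loop: aaaaaGGCTCTTTTAAGAGCCacctaagat
Hist1h4i stem-loop: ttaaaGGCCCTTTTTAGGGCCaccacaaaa
Hist1h1c poly(A) signal: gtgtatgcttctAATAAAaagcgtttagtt
Hist1h4i poly(A) signal: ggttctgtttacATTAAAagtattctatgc
Hist3h2a poly(A) signal: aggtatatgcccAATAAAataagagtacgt
Hist1h2ap longest run of A: ccgaaaagAAAAAAAAAAAAggctcttttc
Hist1h2ae longest run of A: aatctcgtAAAAAAAAcaaaggctcttttc
Hist1h2bc longest run of A: tgtaaagcAAAAAAAAtgcgtcatgttata
A stem-loop was found in 45 of 67 models, a poly(A) signal (AATAAA or ATTAAA within 50 bases of the end) in 16, both in 13 and neither in 19. In Hist1h2ap, an H2A gene, a run of 12 A sits directly before the stem-loop, and the model ends 3 bases after it. Hist1h1c (linker histone H1.2), Hist1h2ae and Hist1h4i hold both endings, with the stem-loop first. The models of 15 members have a 3′ UTR of 2 bases or fewer, Hist1h1b among them, so their listed ends are those of the coding sequence and say nothing of the RNA's end.

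Most members were detected, at very unequal levels. At least 3 UMIs (unique molecular identifiers, each standing for 1 captured molecule) over both libraries were counted for 63 of 67 members, or 94.0%. All 6 H1, 12 H3 and 13 H4 genes were detected, and 16 of 18 H2A and 16 of 18 H2B genes. The members gave 76027 UMIs in 4407 WAT cells and 87404 in 6137 BAT cells, or 609 CPM (counts on a per-million-UMI scale, over the UMIs of all genes, 605 to 613) and 502 CPM (499 to 505). A mean of 1 CPM or more over both depots was reached by 37 members, 5 CPM by 12 and 50 CPM by 5. The 6 highest held 77.7% of all member UMIs in WAT and 73.8% in BAT, and the Hist1 cluster 94.9% and 93.5%.

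The highest member was Hist1h2ap (ENSMUSG00000094777, chromosome 13, 21833026 to 21833507), at 99.3 CPM in WAT (97.6 to 101) and 90.5 CPM in BAT (89.1 to 91.9). Hist1h2bc (ENSMUSG00000018102, H2bc4, 23684199 to 23692908), an H2B gene, had 87.4 CPM in WAT and 84.1 in BAT. Hist1h1b (ENSMUSG00000058773, H1f5, 21779883 to 21780625), which codes for linker histone H1.5, had 98.2 and 64.9 CPM. In WAT the intervals of Hist1h2ap and Hist1h1b overlapped, whereas in BAT Hist1h1b stood clearly below both other genes. Hist1h1c (ENSMUSG00000036181, H1f2) had 62.9 CPM in WAT and 54.9 in BAT. Hist1h1e (ENSMUSG00000051627, H1f4, linker histone H1.4) had 72.8 and 44.4 CPM. Hist1h2ae (ENSMUSG00000069272, H2ac8) had 52.8 and 31.7 CPM. These 6 genes were the 6 highest in each depot, and no other member passed 18 CPM.

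A second tier lay between 5 and 18 CPM. It held the H4 genes Hist1h4i (13.5 CPM in WAT, 17.2 in BAT) and Hist1h4d (12.7 and 12.0), the H1 genes Hist1h1d (14.8 and 11.7) and Hist1h1a (8.47 and 5.74), and the H2A genes Hist3h2a (10.9 and 13.3) and Hist2h2ac (8.40 and 5.95). In WAT the intervals of Hist1h1d, Hist1h4i and Hist1h4d overlapped from neighbour to neighbour, as did those of Hist1h1a and Hist2h2ac in both depots. Below them came Hist1h2be at 5.22 and 4.16 CPM, Hist1h2ac at 4.50 and 3.71, Hist1h3e at 3.96 and 4.25, Hist1h4h at 3.80 and 3.94, Hist1h2bj at 3.54 and 4.08, Hist1h3d at 3.81 and 3.32, Hist1h3c at 3.32 and 2.74, and Hist2h2aa1 at 2.38 and 2.65. Hist1h3e, the highest H3 gene, thus ranked below genes of all 4 other types, although H3 enters the nucleosome in the same number as the other core histones.

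**Figure D1:**
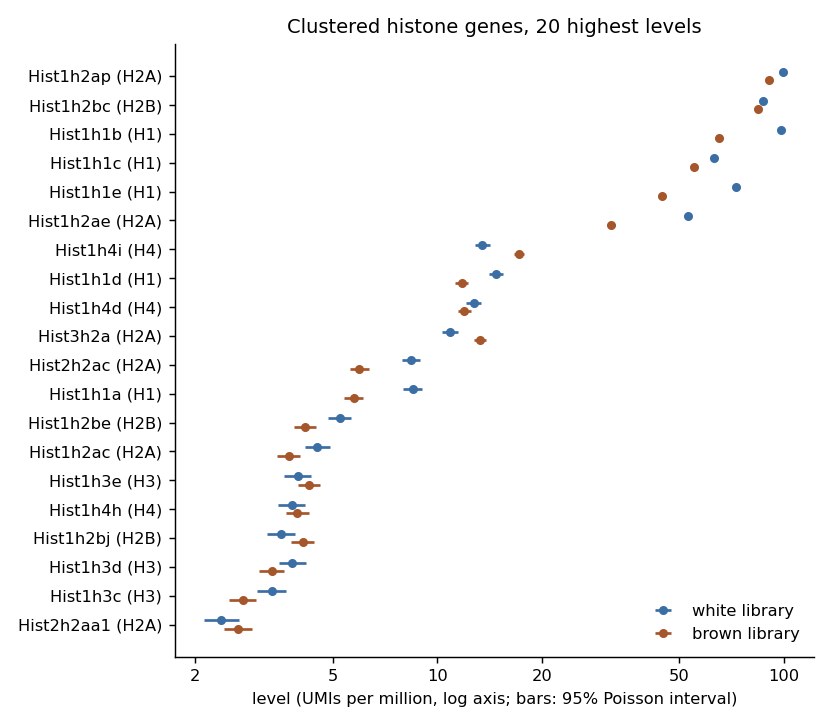
Level of the 20 highest members in CPM (log axis), with blue points for the white library, brown points for the brown library and bars for exact 95% Poisson intervals. The 6 highest genes lie above 30 CPM in both libraries and all others below 18 CPM, and the 3 H3 genes shown do not pass 5 CPM.

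At the low end, Hist1h1t, the testis linker histone H1t, gave 7 UMIs in WAT and 12 in BAT. Hist1h2aa and Hist1h2ba, the testis H2A and H2B genes that share a start region, gave 0 UMIs in both libraries, as did Hist1h2bq. A count of 0 allows a level of up to 0.0240 CPM in WAT and 0.0172 in BAT (3 counts of the total). This limit need not hold for Hist1h2bq, since only 4.88% of its 90-base windows are unique among the gene models. Hist2h2aa2 gave 0 UMIs in WAT and 1 in BAT, but none of its 90-base windows is unique among the gene models, so its reads could not be told from those of its copy Hist2h2aa1. Under 20% of such windows were unique in 13 members, and for Hist1h2ap the share was 7.63%, since Hist1h2ao has nearly the same sequence. How reads were shared out among such copies is uncertain, and Hist1h2ao had 0.184 and 0.115 CPM. Hist1h2be (chromosome 13, 23583670 to 23621124) overlaps Hist1h1e on the same strand, and Hist3h2a overlaps Trim17, so their counts are uncertain in the shared stretches.

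By type, H1 made up 42.2% of member UMIs in WAT (257 CPM, 254 to 260.0) and 36.2% in BAT (182 CPM, 179.7 to 184). H2A followed with 187 and 156 CPM, H2B with 106 and 102, H4 with 38.7 and 41.6 and H3 with 19.9 and 20.8 CPM. Most of the H2B signal came from 1 gene, Hist1h2bc. In both depots H1 was ahead of each core histone type, and H3 was the lowest.

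The features of the gene models sorted the members only in part. The 16 members with a poly(A) signal near the end held 25.9% of member UMIs in WAT and 26.8% in BAT. The 32 with a stem-loop and no such signal held 40.8% in both depots, and the 19 with neither held 33.3% and 32.5%. Median levels in WAT were 1.53, 1.20 and 0.569 CPM for these groups. The group with neither holds all 15 members whose models have a 3′ UTR of 2 bases or fewer, for which the RNA's end is not known. The 7 members with a run of 8 or more A had a median of 13.3 CPM (mean of both depots), against 1.05 CPM in the other 60, and the former held 43.4% and 45.0% of member UMIs. Hist1h2ap, Hist1h2bc and Hist1h2ae are among the 7, yet Hist1h1b, Hist1h1c and Hist1h1e have runs of only 6, 5 and 6 A. Whether priming on such runs, tails or another route gave the UMIs was not tested.

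Members differed more between cell cycle states than between depots. Each cell was called G1, S (DNA synthesis) or G2/M (the gap before division and mitosis) from Seurat's gene lists for the latter phases, which hold no member. In WAT 2753 cells were called G1, 721 S and 933 G2/M, and in BAT 3816, 982 and 1339, so that G1 made up 62.5% and 62.2%. As a check, Mcm3, a replication licensing gene outside the lists, was higher in S than in G1 by 3.27 (WAT) and 3.49 (BAT) on the log2 scale, and Plk1, a mitotic kinase, higher in G2/M by 6.97 and 6.35. The summed member level was 259.7 CPM (256 to 263) in G1, 1116 (1103 to 1130.0) in S and 1085 (1073 to 1097) in G2/M of WAT. In BAT it was 240.1 CPM (237 to 243), 893 (882 to 904) and 873 (864 to 882). The summed log2 ratio of S over G1 was therefore 2.10 in WAT and 1.89 in BAT, and that of G2/M over G1 was 2.06 and 1.86.

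Types differed in how far they followed the cycle. H2A went from 28.3 CPM in G1 to 456 in S in WAT, a 16.1-fold difference, and from 28.4 to 381 CPM in BAT. H1 went from 94.8 to 493 CPM and from 75.7 to 343 CPM. H3 and H4 were 3.96-fold and 3.23-fold higher in S in WAT, and 2.99-fold and 3.08-fold in BAT. The H2B sum went the other way, from 109 to 71.1 CPM in WAT and from 104 to 69.6 CPM in BAT. Its log2 ratio was −0.61 (−0.69 to −0.54) in WAT and −0.57 (−0.64 to −0.51) in BAT. Hist1h2bc made up most of this sum in G1, at 101 CPM in WAT and 96.0 in BAT. The other H2B genes with at least 5 CPM in G1 or S, Hist1h2be and Hist1h2bj, passed this floor through S alone and so had to be higher there. Their log2 ratios were 1.75 and 2.85 (mean of both depots). H2B thus made up 41.9% of member UMIs in G1 but 6.37% in S in WAT, and 43.1% and 7.79% in BAT. Without Hist1h2bc the summed ratio of S over G1 was 2.77 in WAT and 2.57 in BAT.

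A ratio was read for the 20 members with at least 5 CPM in G1 or S, of which 15 passed this floor through S alone and so had to be higher there. In WAT 17 of the 20 were at least 2-fold higher in S, against 5.02% of the 10736 genes compared, and 1 was 2-fold lower, against 0.438%. In BAT 17 were higher and 2 lower, against 4.96% and 0.506%. The median log2 ratio of the 20 was 2.61 in WAT and 2.55 in BAT, beside −0.04 for all genes. Of the 5 members at 5 CPM in both phases, Hist1h1e and Hist1h4i were over 2-fold higher in S, while Hist1h2bc, Hist3h2a and Hist1h1c were not. For G2/M over G1, 16 members in WAT and 17 in BAT were 2-fold higher, against 5.06% and 5.53% of genes, and 0 were 2-fold lower, against 0.877% and 0.848%. Here too 15 of the 20 passed the floor through G2/M alone, and of the 5 at the floor in both phases 2 were 2-fold higher in each depot.

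Among the members above the floor, the steepest were Hist1h1a, Hist1h1b and Hist1h2ap. Hist1h1a, the linker histone H1.1 gene, went from 0.302 CPM in G1 to 25.7 in S in WAT (log2 6.41, 5.80 to 7.10) and from 0.310 to 18.4 CPM in BAT (5.89, 5.38 to 6.45). Hist1h1b went from 4.35 to 258 CPM in WAT (5.89, 5.73 to 6.06) and from 2.92 to 173 in BAT (5.89, 5.72 to 6.06). Hist1h2ap went from 4.47 to 262 CPM (5.87, 5.71 to 6.04) and from 4.18 to 247 CPM (5.89, 5.75 to 6.03). All 3 were under 5 CPM in G1 cells, and the intervals of their ratios overlapped between the depots. The part of free RNA in the droplets, and of cells near a phase limit, in these low G1 levels was not tested.

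A middle group was higher in S by smaller log2 ratios than Hist1h1a, Hist1h1b and Hist1h2ap. Of this group only Hist1h1e and Hist1h4i reached 5 CPM in G1. Hist1h2ae went from 4.93 to 137 CPM in WAT (log2 4.79) and from 3.30 to 83.7 in BAT (4.67). Hist2h2ac had log2 ratios of 3.49 and 3.65, Hist1h4d of 2.73 and 2.58, and Hist1h1d of 2.48 and 2.51. Hist1h1e went from 30.8 to 131 CPM in WAT (2.09, 2.01 to 2.17) and from 19.6 to 80.1 in BAT (2.03, 1.95 to 2.12). It was thus the only one of the 4 S-high H1 genes with a level of over 15 CPM in G1. The H3 gene Hist1h3e had ratios of 2.94 and 2.72, Hist1h2be of 2.00 and 1.50, Hist1h4h of 1.50 and 1.81, and Hist1h2ac of 1.24 and 1.44. Hist1h4i went from 7.77 to 15.6 CPM in WAT (1.01, 0.81 to 1.20) and from 9.86 to 21.4 in BAT (1.12, 0.97 to 1.26).

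Hist1h2bc, Hist3h2a and Hist1h1c were not higher in S than in G1. Hist1h2bc had 101 CPM in G1, 35.9 in S and 92.8 in G2/M of WAT, and 96.0, 36.1 and 89.6 CPM in BAT. Its log2 ratio of S over G1 was −1.50 (−1.60 to −1.39) and −1.41 (−1.50 to −1.32), so S was its low point in both depots, with G2/M 2.58-fold and 2.48-fold above S. Hist3h2a had 12.2, 7.09 and 10.7 CPM in WAT and 14.8, 7.25 and 13.7 in BAT, a shape like that of Hist1h2bc. Hist1h1c had 54.5, 50.0 and 94.3 CPM in WAT and 48.8, 47.7 and 75.7 in BAT. It thus differed little between G1 and S, with a log2 ratio of −0.12 (−0.22 to −0.03) and −0.03 (−0.12 to 0.05), and highest in G2/M. The H3 genes Hist2h3c1 and Hist2h3c2, which lie under the 5 CPM floor and were picked after their values were seen, were also lower in S, by log2 ratios of −1.44 and −1.40 in WAT and −1.07 and −1.10 in BAT. Of their 90-base windows, 0% and 38.0% are unique among the gene models, so their counts are uncertain. The level of Hist1h2bc was 2.83-fold (WAT) and 2.66-fold (BAT) higher in G1 than in S. CPM is a share of all UMIs, and the median cell in S held 31822 UMIs in WAT and 29224 in BAT. In G1 it held 25297 and 24744, and the part of this depth difference in the ratios was not tested.

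**Figure D2:**
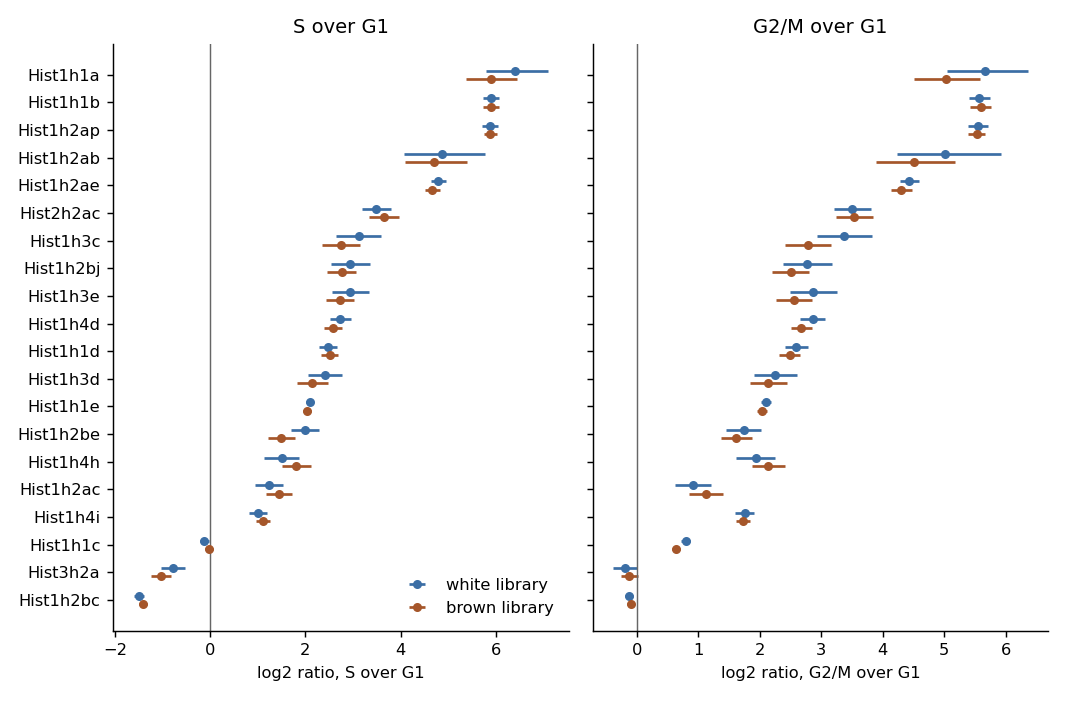
Log2 ratio of S over G1 and of G2/M over G1 for 20 members in the white (blue) and brown (brown) library, with bars for 95% counting intervals and a line at 0. Hist1h1a, Hist1h1b and Hist1h2ap lie near 6, and Hist1h2bc is the lowest member at about −1.5 in S.

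The markers of other cells were set beside these values. The 5 myeloid markers Ptprc, Tyrobp, Lyz2, Csf1r and Cd68 summed to 41.8 CPM in G1 and 170.1 in S of WAT, and to 35.6 and 179.9 CPM in BAT. In G2/M they summed to 104 CPM in WAT and 253 in BAT. In cells that the authors labelled as precursors, in which Ptprc is at or near 0, the summed ratio of S over G1 was 1.98 in WAT and 1.95 in BAT, beside 2.10 and 1.89 over all cells.

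The ratio of S over G1 was also read by end kind. Among members with 1 CPM or more in G1 or S, a floor that lets in members through S alone and so draws these medians upward, the median log2 ratio of S over G1 was 1.12 in both depots for those with a poly(A) signal near the end (11 members). For those with a stem-loop alone it was 2.79 in WAT and 2.55 in BAT (25 members), and for those with neither 3.89 and 3.11. Of the 19 members with neither, 15 have models with a 3′ UTR of 2 bases or fewer, so their RNA ends are not known. Within each kind the spread was wide, since Hist1h2ae (4.79 in WAT) and Hist2h3c1 (−1.44) both have a poly(A) signal. The 3′ UTR of Hist1h2bc, 742 bases in the model, holds no stem-loop. It holds AATAAA, but more than 50 bases before the end, so the gene counts among those with neither. Hist1h1b, with neither and a model that stops at the coding sequence, had a ratio of 5.89.

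At least 1 member UMI was counted in 97.8% of cells in each depot, with a median of 5 per G1 cell in both, 15 and 12 per S cell and 17 and 15 per G2/M cell in WAT and BAT. Single cells in S were not uniform. In WAT the summed member level per S cell had a lower quartile of 205 CPM, a median of 487 and an upper quartile of 1936, and in BAT 196, 415 and 1460.3 CPM. More than 1000 CPM was reached by 39.5% of S cells in WAT and 35.0% in BAT, by 37.8% and 31.6% of G2/M cells, and by 1.78% and 1.02% of G1 cells. The median G1 cell had 204 and 199 CPM. The lower quartile of S cells was thus close to the median of G1 cells, and 14.6% of WAT and 15.5% of BAT cells lay within 0.05 of a limit between phases.

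To follow this further, cells outside G1 were ranked from the S end to the G2/M end of the scores and cut into 6 equal groups. The summed level was 723, 910, 1991, 1444, 1129 and 410.0 CPM from the first to the last group in WAT, and 703, 696, 1501, 1079, 881 and 445 CPM in BAT. The highest level was in the third group, not at the S end, where Mcm3 was highest (171 CPM in WAT). Of the 21 members with 5 CPM in a group of both depots, 17 peaked in the third group in WAT and 15 in BAT, 4 and 1 in the fourth, and 0 and 5 in the fifth. Hist1h2ap reached 487 CPM in WAT and 437 in BAT at its peak and ended at 57.6 and 74.4 CPM. Hist1h1b reached 480 and 318 CPM, and Hist1h1a 41.7 and 29.7. Hist1h2bc peaked later, in the fourth group, at 131 and 116 CPM, from 33.8 and 31.8 CPM at the S end. Hist1h1c peaked in the fourth group in WAT (129 CPM) and the fifth in BAT (96.1), and Hist1h4i in the same groups at 32.5 and 38.1 CPM. The level of Hist1h2bc in the last group, 48.0 and 52.5 CPM, was below that of G1 cells.

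**Figure D3:**
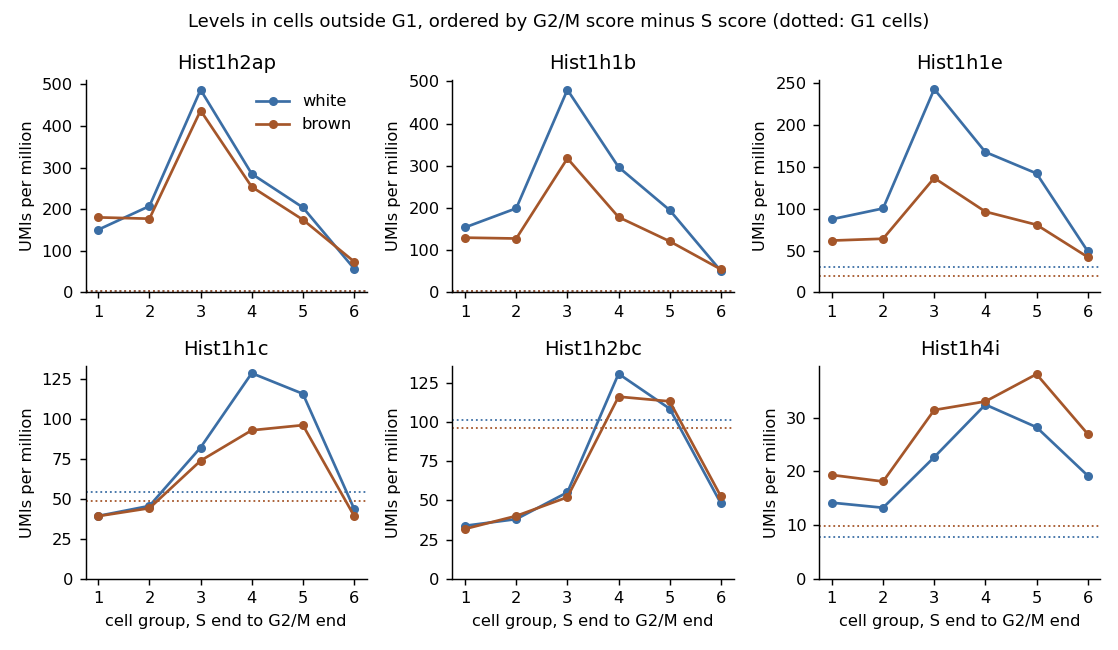
Level in CPM of 6 members over 6 equal groups of cells outside G1, ordered from the S end (1) to the G2/M end (6) of the cycle scores, in the white (blue) and brown (brown) library, with dotted lines at the level of G1 cells. Hist1h2ap, Hist1h1b and Hist1h1e peak in the third group, and Hist1h2bc, Hist1h1c and Hist1h4i in the fourth or the fifth.

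The makeup of linker histone messages differed between phases. Over the 5 somatic H1 members and the 2 H1 genes outside the clusters, H1f0 and H1fx, Hist1h1b gave 2.35% of UMIs in G1 (2.11 to 2.63%) and 42.8% in S (42.0 to 43.7%) in WAT. In BAT it gave 1.89% and 39.0%. Hist1h1c gave the largest share in G1, 29.5% and 31.6%, with intervals that overlapped those of H1f0 in both depots. In S it gave 8.29% of H1 UMIs in WAT and 10.7% in BAT. H1f0, the replacement linker histone, gave 28.0% in G1 and 9.92% in S of WAT. Hist1h1e gave 16.7% in G1, 21.7% in S and 19.9% in G2/M of WAT, and 12.7%, 18.0% and 15.6% in BAT.

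Some neighbouring members had very unequal levels. Within 500 bases of each other and on opposite strands, 12 pairs of an H2A and an H2B gene share a start region, and in 10 of them both genes gave UMIs in both depots. The H2A gene was the higher in 6 of the 10. Low pairs could be close, as were Hist1h2ak (0.745 CPM in WAT) and Hist1h2bn (0.569 CPM), with log2 ratios of S over G1 of 3.14 and 2.82. Hist1h2ap (99.3 CPM in WAT) faces Hist1h2br (1.27 CPM) over 236 bases, and Hist1h2ae (52.8 CPM) faces Hist1h2bg (0.889 CPM) over 176 bases. Hist1h2ac and Hist1h2bc start 251 bases apart and differed in direction, with log2 ratios of S over G1 of 1.24 and −1.50 in WAT and 1.44 and −1.41 in BAT.

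Start regions are printed for Hist1h1b and Hist1h1c, both among the 6 highest members and unlike in S over G1, and for the shared region of Hist1h2ac and Hist1h2bc. They are the 150 bases before the start in RefSeq (GRCm38.p6), read toward the gene, with 4 motifs in capitals on either strand. They are CCAAT, the TATA box TATAAA, the H1 box AAACACA and the octamer ATTTGCAT.
Hist1h1b, chr13:21780626-21780775, minus strand: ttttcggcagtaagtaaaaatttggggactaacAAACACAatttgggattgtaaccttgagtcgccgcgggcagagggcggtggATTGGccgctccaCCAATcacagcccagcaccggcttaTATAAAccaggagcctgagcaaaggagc
Hist1h1c, chr13:23738657-23738806, plus strand: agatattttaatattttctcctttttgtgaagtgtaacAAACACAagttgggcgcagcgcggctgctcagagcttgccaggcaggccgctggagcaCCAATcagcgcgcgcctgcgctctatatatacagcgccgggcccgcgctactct
Hist1h2ac, chr13:23683960-23684109, minus strand: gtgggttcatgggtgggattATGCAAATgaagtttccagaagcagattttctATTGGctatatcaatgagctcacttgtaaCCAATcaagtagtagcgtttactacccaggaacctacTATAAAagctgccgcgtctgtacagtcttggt
Both H1 regions hold CCAAT and the H1 box, and only that of Hist1h1b holds TATAAA. In WAT Hist1h1b was 59.4-fold higher in S than in G1 and Hist1h1c was not higher. Whether any motif bears on these ratios was not tested. Over the whole window of 300 bases (250 before and 50 after the start), CCAAT was found in 85.2% of the 61 members matched, against 37.4% of 32851 promoters, and TATAAA in 57.4% against 13.6%. CCAAT was in all H1, H2A, H2B and H3 genes matched but in only 3 of 12 H4 genes. The windows of facing genes, such as Hist1h2ae and Hist1h2bg, overlap. The H1 box was found in 5 of 6 H1 genes (the one without it is Hist1h1a, which had the highest S over G1 ratio of the H1 genes in WAT) and 7.18% of all promoters, and the octamer in 7 of 17 H2A and 6 of 16 H2B genes against 1.74%. None of the 4 motifs contains another. A match is a run of letters and not a site of binding.

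Between depots the members differed less than between phases. The summed log2 ratio of BAT over WAT was −0.28 (−0.29 to −0.27), a 1.21-fold higher level in WAT. The 6 highest members together gave −0.35 (−0.37 to −0.34) and the other 61 gave −0.05 (−0.08 to −0.02). Of the 13 members with 5 CPM in either depot, 11 were lower and 2 higher in BAT. Of all 10675 genes compared, 42.9% were higher in BAT, so most genes leaned the same way. The median was −0.33 for the members beside −0.04 for all genes. None of the 13 passed 2-fold, against 1.04% of the 10675 genes that were 2-fold higher in BAT and 1.14% lower. H1 differed most among types (−0.50, −0.52 to −0.48), followed by H2A (−0.26), while H2B (−0.06), H3 (0.06) and H4 (0.11) were near 0.

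Hist1h2ae (−0.73, −0.79 to −0.68), Hist1h1e (−0.71, −0.76 to −0.67) and Hist1h1b (−0.60, −0.63 to −0.56) were, among the 13 members above the floor, the lowest in BAT relative to WAT. Hist1h1a (−0.56), Hist2h2ac (−0.50), Hist1h1d (−0.33) and Hist1h1c (−0.20) were lower in BAT as well. Hist1h2ap, the highest member, differed by only −0.13 (−0.17 to −0.10), and Hist1h2bc by −0.05 (−0.09 to −0.02). Hist1h4i (0.35, 0.27 to 0.44) and Hist3h2a (0.28, 0.19 to 0.38) were the members above the floor that were higher in BAT.

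The depot values were also read within phases, since the shares of phases were alike. Hist1h1e was lower in BAT by −0.65 in G1, −0.71 in S and −0.71 in G2/M. Hist1h2ae had −0.58, −0.71 and −0.71, and Hist1h1b −0.58, −0.58 and −0.55. All 3 were thus lower in BAT within each phase, with every interval below 0. Hist1h4i was higher in BAT in each phase, by 0.34, 0.45 and 0.32, whereas Hist3h2a was higher in G1 (0.29) and G2/M (0.36) with an interval across 0 in S (−0.27 to 0.33). The summed ratio was −0.11 in G1, −0.32 in S and −0.31 in G2/M. In G1 the members other than the 6 highest were higher in BAT, by 0.14 (0.09 to 0.20), and so were the H3 genes (0.37, 0.23 to 0.51). The median over members was −0.33 over all cells (13 members above the floor) and −0.0804 in G1 cells alone (5 members), so the genes differ. In precursors with an author label the summed ratio over all phases was −0.23.

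**Figure D4:**
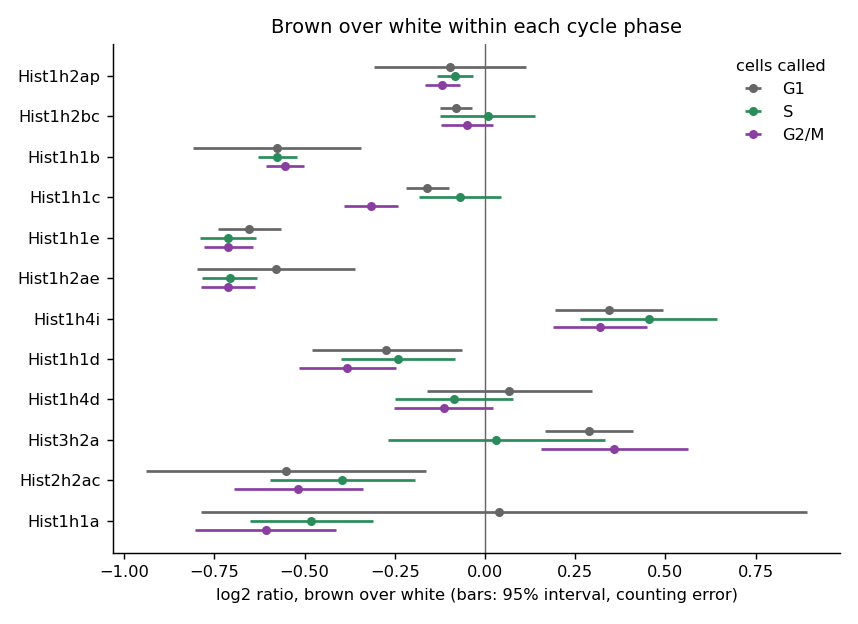
Log2 ratio of BAT over WAT for the 12 highest members within G1 (grey), S (green) and G2/M (purple) cells, with bars for 95% counting intervals and a line at 0. Hist1h2ae, Hist1h1e and Hist1h1b lie between −0.55 and −0.71 in all 3 phases and Hist1h4i lies above 0 in all 3.

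The authors clustered the precursors after regressing out the cycle scores, and their labels were read for the cells that carry one. They name committed precursors (CAPs, high in Pparg and Fabp4), fibro-adipogenic-progenitor-like cells (FAPLs, high in Cryab and Serpinb1a) and early precursors (APC 1 to 4 in WAT and 1 to 5 in BAT). Pparg reached 92.5 CPM in wCAPs and 92.8 in bCAPs against 9.48 and 17.0 in FAPLs, and Cryab 333 and 445.5 CPM in FAPLs. The clustering used these counts too, and values by cluster are therefore descriptions. In WAT the summed member level was 644 CPM in wCAPs (632 to 655), 596 in wFAPLs and 593 in wAPC 3. The levels of wAPC 2 and wAPC 1 were 570.1 and 514 CPM, and wAPC 4 was last with 396 CPM. The 15 differentiating wFAPLs had 644 CPM with a wide interval (574 to 720). In BAT it was 631 CPM in bCAPs (614 to 648), 541 in bAPC 1, 538 in bAPC 5, 521 in bAPC 3, 516 in bFAPLs, 389 in bAPC 2 and 287 in bAPC 4 (272 to 303).

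Over all cells CAPs stood at the top in both depots, with wAPC 4 at the bottom in WAT and bAPC 4 in BAT. Clusters were numbered in each depot apart, and the paper marks wAPC 4 by Tgfb1 but bAPC 4 by Creb5 and Ptprz1. In G1 cells APC 3 led, with 447 CPM in wAPC 3 against 265 in wCAPs and 409 CPM in bAPC 3 against 269 in bCAPs, and the lowest were wAPC 2 (202 CPM) and bAPC 4 (179.7). The intervals of wCAPs and the 15 differentiating wFAPLs overlapped, as did those of bAPC 1, bAPC 5, bAPC 3 and bFAPLs from neighbour to neighbour. The order was also read against the level that each cluster would have if its cells of each phase had the depot's level for that phase. On the log2 scale wAPC 4 stood at −0.68 and bAPC 4 at −0.53 from that level, and wCAPs and bCAPs at 0.26 and 0.33. In S cells alone, wCAPs had 1339.8 CPM, wFAPLs 1283 and wAPC 4 (17 cells) 478. In BAT, bAPC 5 (15 cells) had 1293 CPM in S, bCAPs 1270.1 and bAPC 4 (18 cells) 454.

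APC 3, in both depots the cluster with the largest share of cells outside G1 (59.3% and 72.5%), had its own member profile over all phases. Of its cells 50.0% and 60.8% were called G2/M and 9.26% and 11.7% S, the lowest S share in each depot. Hist1h2ap was lowest there, at 33.7 CPM in wAPC 3 and 36.5 in bAPC 3, as was Hist1h1b, at 32.1 and 24.6 CPM. Hist1h1a had 1.84 and 1.37 CPM, the lowest of the clusters in each depot. In contrast Hist1h1c was highest there, at 137 and 109.6 CPM, and Hist1h4i at 23.8 and 37.4. Hist1h2bc had 169.6 CPM in bAPC 3, and in G1 cells 207 and 182 CPM in wAPC 3 and bAPC 3, the highest of the clusters with at least 15 such cells. Within phases the profile held only in part. In G1, Hist1h1c was again highest in APC 3 (114 and 97.2 CPM), but Hist1h2ap was highest in wAPC 3 (5.44 CPM) in WAT. In S, Hist1h2ap and Hist1h1b were lowest in wAPC 4 and bAPC 4. Median depth was lowest in APC 3 too, at 23339 and 23668 UMIs. The part of depth and of the phase mix in these values was not tested.

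**Figure D5:**
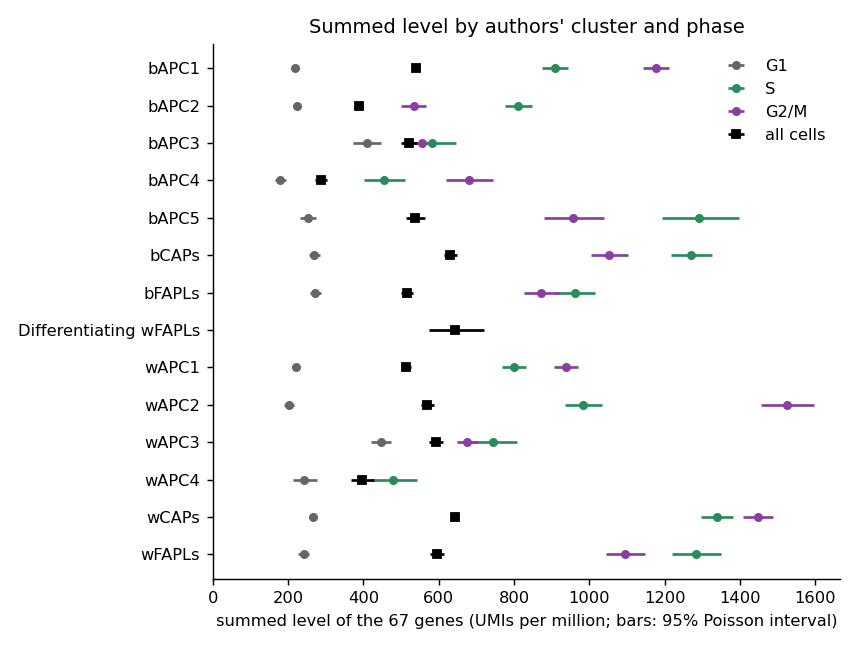
Summed level of the 67 genes in CPM by the authors' cluster, over all cells (black squares) and in G1 (grey), S (green) and G2/M (purple), where at least 15 cells were present, with bars for exact 95% Poisson intervals. wCAPs, level with the 15 differentiating wFAPLs, and bCAPs are highest over all cells. The lowest over all cells and in S are wAPC 4 in WAT and bAPC 4 in BAT.

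FAPLs were compared with CAPs over the members. The summed log2 ratio was −0.11 (−0.16 to −0.06) in WAT and −0.29 (−0.35 to −0.23) in BAT. Of 15 members compared in WAT, 1 was 2-fold lower in wFAPLs (against 1.99% of genes) and 0 were 2-fold higher (2.76%). In BAT, 1 of 16 was 2-fold lower (2.58%) and 0 were higher (2.29%). The member in WAT was Hist2h2ac, at 5.02 CPM in wFAPLs and 10.4 in wCAPs (−1.05, −1.61 to −0.54), and in BAT it stood at 4.91 and 9.39 CPM (−0.94). The member in BAT was Hist1h3e, at 3.71 CPM in bFAPLs and 7.80 in bCAPs (−1.07, −1.77 to −0.41), so that it passed the floor through bCAPs alone, and of the 11 members at the floor in both BAT groups 0 were 2-fold lower. Hist1h2bc went the other way, higher in FAPLs by 0.16 (0.03 to 0.30) and 0.29 (0.13 to 0.44). In G1 cells of BAT the summed level was 272 CPM in bFAPLs and 269 in bCAPs, a log2 ratio of 0.02 (−0.10 to 0.13). In S cells it was 962 CPM in bFAPLs and 1270.1 in bCAPs, a log2 ratio of −0.40 (−0.50 to −0.30).

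Cells of other types in the libraries also carried members. The cells labelled glial had 975 CPM (20 cells) in WAT and 1306 (22 cells) in BAT, and myeloid cells had 931 (14 cells) and 859 CPM (27 cells). Of the glial cells 8 in WAT and 6 in BAT were called G1, and of the myeloid cells 4 and 3. Over all cells G1 made up 62.5% and 62.2%, and the part of phase in these levels was not tested. The 8 myoblasts of BAT, all called G1, had 259 CPM (199 to 332).

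The genes that act on histone messages and carry histones were read from a list of 26. Of the 25 at 5 CPM, 9 were at least 2-fold higher in S than in G1 in each depot and 0 were 2-fold lower, with medians of 0.40 and 0.43. Of these 9, Slbp, Nasp, Casp8ap2 and Chaf1b are in the S list that called the phases, so their ratios are partly set by the call. Among the 21 compared outside the lists, 5 were 2-fold higher in each depot, with medians of 0.33 and 0.39. The highest was Asf1b, a histone chaperone, at 5.01 and 4.49. Lsm10, part of the small RNP that helps cut the messages, was at −0.17 in WAT and −0.21 in BAT. The 11 histone genes outside the clusters were read in the same way. In S, 2 of them were 2-fold higher than in G1 in each depot, with medians of 0.21 and 0.24, and in G2/M 5 in WAT and 6 in BAT, with medians of 0.97 and 1.07. One of them, the centromere H3 gene Cenpa, is in the G2/M list, and without it 4 in WAT and 5 in BAT were 2-fold higher in G2/M, with medians of 0.70 and 0.75. H3f3a, a replacement H3 gene, had 0.03 and 0.05 in S. H2afz and H3f3a alone, at 982 and 933 CPM in WAT, each exceeded the summed level of all 67 members.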

How the data were processed

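Single-cell libraries (10x Genomics Chromium 3′ v3.1) of cultured WAT and BAT progenitors, 1 per depot, were used. The UMI counts were deposited by the authors as unnormalised matrices. Reads had been aligned and counted with Cell Ranger 7.0.1 at default parameters against mm10, reference 2020-A. The 3′ UMIs were not divided by gene length.

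Cells were kept at 3900 to 7700 genes (over genes seen in 3 or more captured cells, a rule taken because it returns the study's number of WAT cells, though it leaves slightly fewer BAT cells than the study states), 6000 to 60000 UMIs and 1.7 to 5% mitochondrial UMIs, which left 4407 of 5261 WAT and 6137 of 7009 BAT cells, holding 124840572 and 174159912 UMIs. Doublets were not removed here. Both libraries shared 9 cell barcodes, and cells were treated as separate. Cell types and clusters are the authors' labels from their source data, which were held for 1999 cells per depot, and the clusters called APC 1 to 5 here are their Early Preads.

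UMIs were summed over the cells of a group and divided by all UMIs of the group (CPM), with exact Poisson 95% intervals. Log2 ratios of sums had conditional binomial (Clopper-Pearson) 95% intervals. Intervals cover counting error only, and no p-value was computed because each depot is 1 library. The ratio script was tested on simulated data. Phases were called in Python in the manner of Seurat's AddModuleScore, with the 43 S and 54 G2/M genes of Seurat 5.3.0 in mouse spelling, 24 expression bins and 43 control genes per gene, members kept out of the control pools. Counts past 2-fold and medians were taken over genes that reached 5 CPM in one or both groups. Groups of under 15 cells were left out of cluster orders. Sequences were read from GENCODE M21 transcripts (67 members matched) and RefSeq promoters (61 matched). For each gene the coding model with the longest 3′ UTR was used.

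The members and lists were chosen with earlier results of these data known. Named members are the 20 highest by mean CPM, the 3 highest and 3 lowest by S over G1 ratio, the 3 most different between depots in each direction, and Hist1h1t, Hist1h2aa and Hist1h2ba. Other members, such as those of facing pairs or with shared sequence, were picked after their values were seen, as were Mcm3 and Plk1 from the genes that check phases. The alternatives tried were thinning to 10000 UMIs, weighting cells equally, other cells, phase limits, floors and folds. Analysis used Python 3.11.15, numpy 2.4.6, scipy 1.17.1, pandas 2.3.3 and R 4.3.3.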

Additional observations from a re-analysis of the deposited data

Results flagged for a closer look

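The captured cells outside the limits on genes, UMIs and mitochondrial share, which enter only the alternatives that go beyond these limits, carried a higher member signal than those kept. Their summed level was 705 CPM in WAT (693 to 717, 854 cells), beside 609 CPM in the cells kept, and 600.3 CPM in BAT (592 to 609, 872 cells), beside 502 CPM. H1 genes made up 45.0% and 36.8% of member UMIs there. Among these, the 117 WAT cells at or above the upper UMI limit had 728 CPM (709.6 to 747).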

How the results depend on the processing

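Of 133 alternative values, 74 moved by less than their counting interval (counts: by less than 1.5 times), 57 moved further and 2 reversed. The 2 that reversed were FAPLs over CAPs in BAT in G1 cells only, with a summed log2 ratio of 0.0154 (from −0.29) and a median of 0.00057 (from −0.38). Phases weighted equally gave −0.22 in BAT and −0.20 in WAT (from −0.11).

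With cells thinned to 10000 UMIs the summed level was 564 CPM in WAT and 481 in BAT, and with cells weighted equally 564 and 481. With all captured cells, here and below those with at least 1000 genes, it was 622 and 517. BAT over WAT (summed −0.28) was −0.23 thinned, with cells weighted equally and in labelled precursors, −0.25 with phases weighted equally and −0.11 in G1. Its median (−0.33) was −0.0804 in G1 (over 5 members), −0.14 with phases weighted equally and −0.0912 at a floor of 1 CPM. At 1.5-fold, 3 members were lower in BAT in place of 0, with no share of all genes taken at that fold.

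S over G1 in WAT (2.10) was 2.00 thinned, 1.99 with cells weighted equally, 2.19 without cells near a phase limit and 1.98 in labelled precursors. In BAT (1.89) it was 1.82, 1.81, 1.98 and 1.95, and 1.94 with all captured cells. Thinned medians were 2.31 and 2.33. G2/M over G1 in WAT (2.06) was 1.98, 1.96, 1.99 with all captured cells and 2.00 without cells near a limit, and in BAT (1.86) 1.79, 1.80, 1.76 and 1.79.

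The floor set the counts. A lower floor lets in more members through 1 group alone, and the share of all genes was taken only at 5 CPM and 2-fold. The counts here therefore have no such share beside them. At 1 CPM, 41 and 40 members were 2-fold higher in S (WAT and BAT), 38 and 39 in G2/M, and at 20 CPM 7 in each. Those lower in S numbered 3 and 4 at 1 CPM, 2 at 1.5-fold in WAT and 1 at 20 CPM in BAT, and 2 were lower in G2/M at 1 CPM in each depot. For FAPLs over CAPs, the WAT median at 1 CPM was −0.0039. Members lower in FAPLs numbered 0 at 20 CPM in both depots, 2 at 1.5-fold in WAT and 5 at 1.5-fold or 1 CPM in BAT, and 1 was higher at 1.5-fold in WAT. The cause of these moves was not tested, beyond the floor and fold themselves.

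No paired analysis was possible because each depot has 1 library with no replicate number, so the spread between cultures is unknown. Depth limits the low members: the floor of 5 CPM in a phase leaves 20 of 67 members for ratios.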
